A study of Homo sapiens with 2 samples.

Results

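The polyamine synthesis genes are a set of 10 named genes, taken as every probe set whose platform-annotated symbol was ODC1, AMD1, SRM, SMS, OAZ1, OAZ2, AZIN1, SAT1, PAOX or MTAP. All 10 were found, each with 1 probe set, among 18417 genes with a probe set of their own. Both samples were K562 cells, an established human chronic myeloid leukaemia line, engineered to make, when doxycycline is added, a short hairpin RNA that targets BMI1, which encodes a core protein of the Polycomb complex PRC1. The doxycycline group was 1 culture given the drug for 96 h, and the control group was 1 culture of the same hairpin-bearing cells given none, with no time stated. Neither a culture without the hairpin nor a control hairpin was among the samples, so the effect of the drug, of the hairpin and of any other difference between the cultures cannot be told apart. The sources used here do not say whether the line is 1 clone. Values are log2 RMA values from 1 Affymetrix array per culture, and every difference below is doxycycline minus no doxycycline on the log2 scale. With 1 array a group there was no replicate, no p-value could be computed, and the number of arrays limits the precision.

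Putrescine, spermidine and spermine are small positively charged molecules that bind RNA and DNA and that growing cells need in large amounts. ODC1 makes putrescine from ornithine, AMD1 supplies the aminopropyl donor from S-adenosylmethionine, and the synthases SRM and SMS add that group to give spermidine and then spermine. Antizymes, whose own translation needs a polyamine-driven ribosomal frameshift, send ODC1 to the proteasome, and AZIN1 is an ODC1 relative without activity that binds antizyme and so spares ODC1. SAT1 acetylates spermidine and spermine for export or for oxidation by PAOX, and MTAP recycles the methylthioadenosine left by both synthases towards methionine. ODC1 is a textbook target of MYC, which binds the E-box CACGTG together with MAX. Much of this control acts on translation and protein decay, which an array does not measure.

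The sequences that bear on the MYC link are shown first, because 2 of the 4 synthesis genes carry an E-box near a start site. RefSeq promoter windows on GRCh38.p14, which run from 250 bases before to 50 bases after a start, were used for 8 of the 10 genes. PAOX and AZIN1 were not used here. CACGTG, which reads the same on both strands, was present in windows of ODC1 and SRM and not in those of AMD1, SMS, OAZ1, OAZ2, SAT1 or MTAP. CACGTG was in 2 of the 11 windows of these genes and in 7.26% of all 35116 windows searched. ODC1 and AMD1 have more than 1 window, and windows of AMD1 overlap. The E-box of SRM began 199 bases before its start. ODC1 has 2 listed starts 315 bases apart. The window of the downstream start held 2 copies, one beginning 29 bases before the start and the other at its 6th base, and 0.664% of all windows held at least 2. The stretches below are printed 5′ to 3′ with CACGTG in capitals. SAT1 was picked because it has the highest difference of the set, and it has 0 copies. Of the other genes past the floor without a copy, AMD1 differed by -0.13, SMS by 0.01, OAZ1 by 0.03 and OAZ2 by 0.20. Whether the E-box has a part in any difference was not tested.
SRM, the 250 bases before the start, chr1:11060019-11060268, minus strand: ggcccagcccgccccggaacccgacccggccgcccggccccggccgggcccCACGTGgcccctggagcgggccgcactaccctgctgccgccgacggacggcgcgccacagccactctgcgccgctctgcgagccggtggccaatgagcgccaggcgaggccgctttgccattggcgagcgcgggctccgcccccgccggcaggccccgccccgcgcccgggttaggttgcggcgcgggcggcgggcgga
ODC1, 100 bases before to 20 after the downstream start, chr2:10447993-10448112, minus strand: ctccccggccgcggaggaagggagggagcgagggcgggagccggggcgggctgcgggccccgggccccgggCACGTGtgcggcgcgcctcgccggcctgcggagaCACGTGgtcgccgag
SAT1, the 250 bases before the start, chrX:23782923-23783172, plus strand: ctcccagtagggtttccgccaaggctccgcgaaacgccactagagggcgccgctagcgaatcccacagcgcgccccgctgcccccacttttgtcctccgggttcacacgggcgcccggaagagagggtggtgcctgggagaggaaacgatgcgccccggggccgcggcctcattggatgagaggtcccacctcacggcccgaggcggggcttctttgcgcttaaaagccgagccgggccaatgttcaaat

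Other short motifs were searched on both strands of the same windows, and in these genes no match of theirs overlaps the E-box. The TATA-type run TATAA was present in windows of ODC1, AMD1, OAZ1 and MTAP. That was 5 of the 11 windows, against 20.4% of all windows. In the upstream ODC1 window TATAA began 32 bases before the start. GGGCGG, the core of the GC box, was present in windows of 7 of the 8 genes, SAT1 being the exception. That was 10 of the 11 windows, against 45.0% of all windows. TGATGNAA, the core of the composite element read by ATF4, was present in 0 of the 11 windows of these genes and in 3.62% of all windows. A match is a run of letters and not a shown binding site.

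The BMI1 signal was lower with doxycycline, and the markers below describe the cultures without settling which cells they were. The probe set that BMI1 shares with its read-through transcript from COMMD3 had values of 10.00 (doxycycline) and 10.84 (control), differing by -0.84. Of 11 erythroid markers of K562, 9 were measured on probe sets of their own and all 9 were past the floor of 6 that the higher of the 2 values had to reach. All 9 were lower with doxycycline, as were 48.8% of all 13471 genes past the floor. Their differences ran from -0.57 to -0.09 with a median of -0.18, beside a median of 0.00177 for all genes. HEMGN, an erythroid nuclear protein gene (-0.57), and the embryonic globin genes HBZ (-0.44) and HBE1 (-0.31) were the furthest from 0. HBZ is given at its brighter probe set. Its dimmer one (9.85 with doxycycline, 10.49 without) differed by -0.65, outside the range above. Of 12 markers of other cell types, 8 were past the floor. The T cell gene CD3E, the B cell gene MS4A1 and the myeloid gene MPO were under it in both samples. CD3D of T cells (7.37 with doxycycline, 7.45 without) and CD79A of B cells (6.14 and 6.39) were above it. The epithelial gene EPCAM (8.88 with doxycycline, 8.91 without) and the endothelial gene PECAM1 (8.34 and 8.33) were above it too. So were the fibroblast gene COL1A1 (7.73 and 7.84) and the myeloid gene CD14 (6.30 and 6.29). PECAM1 is given at its brighter probe set, and its dimmer one (3.48 and 3.64) was under the floor. Of the myeloid genes, LYZ differed by 0.28 and ELANE by -0.33, and CD79A differed by -0.25. Whether the lower erythroid markers have a part in any difference below was not tested.

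Among the enzymes that build polyamines, the first enzyme and spermidine synthase were lower in the doxycycline culture and spermine synthase was level with the control. ODC1 measured 12.62 with doxycycline against 12.84 in the control, differing by -0.22, or 1.16-fold lower. SRM measured 10.58 with doxycycline against 10.84 in the control, differing by -0.26, or 1.198-fold lower. AMD1 measured 10.54 with doxycycline against 10.67 in the control, differing by -0.13, or 1.09-fold lower. SMS measured 10.20 with doxycycline against 10.19 in the control, differing by 0.01, whose sign turned (-0.01) once a trend of differences with gene span was removed. In bulk RNA, fewer cells that express a gene and less of its RNA per cell cannot be told apart.

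**Figure D1:**
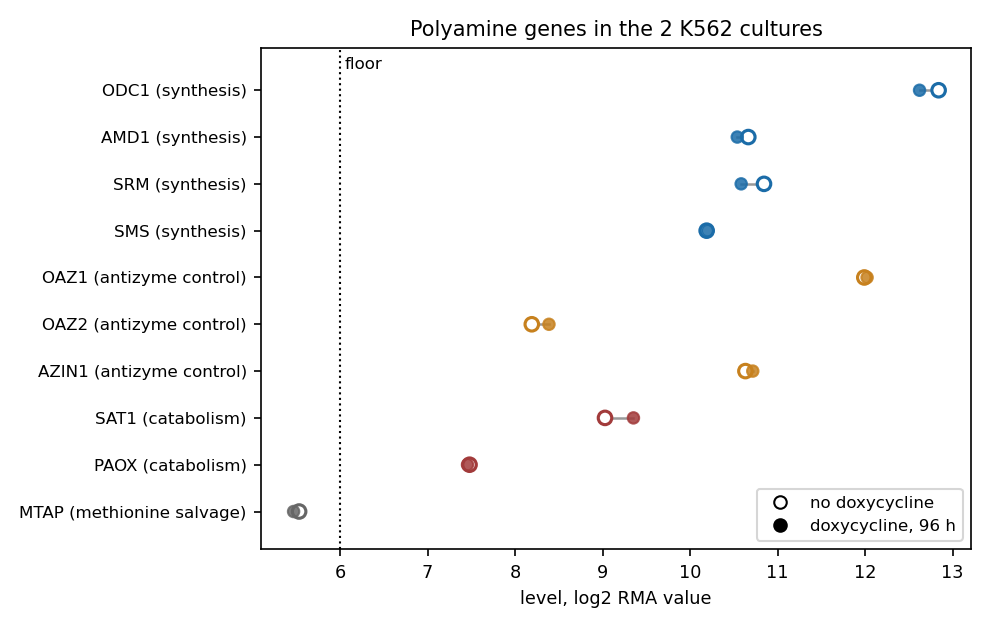
Level of each of the 10 genes in both cultures (x axis, log2 RMA value; open circles without and filled circles with doxycycline, 1 array each; the dotted line is the floor of 6; the step of the pathway is named beside each gene). ODC1 and SRM lie to the left of their controls, SAT1 and OAZ2 to the right, and MTAP is the 1 gene under the floor. Probe sets differ in brightness, so levels are read within a row and not between rows.

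ODC1 and SRM were among the lower values of genes of their brightness, and AMD1 lay within 1 robust SD of 0. The robust SD of the differences of genes of similar level (the scaled median absolute deviation of genes sorted by mean level into 20 bins) was 0.10 for ODC1 and 0.13 for SRM and AMD1. In units of that spread, ODC1 lay at -2.12, SRM at -2.04 and AMD1 at -0.986. Of the 674 genes in the brightness bin of ODC1, 12 (1.78%, ODC1 included) were as low or lower. Of the 673 in the bin of SRM, 18 (2.67%) were, and 112 (16.6%) were as low as AMD1. This spread is between genes of a single pair of arrays and does not stand in for replicate error.

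Of the 4 synthesis genes, 3 were lower, against 48.8% of all genes, and 2 of the 4 were at least 1.1-fold lower, against 17.1%. With 4 genes the median was -0.17. None of the 4 was at least 1.2-fold lower (0 of 4), a size that 4.05% of all genes reached. SRM lay just short of that size at 1.198-fold, and AMD1 just short of 1.1-fold at 1.09-fold.

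**Figure D2:**
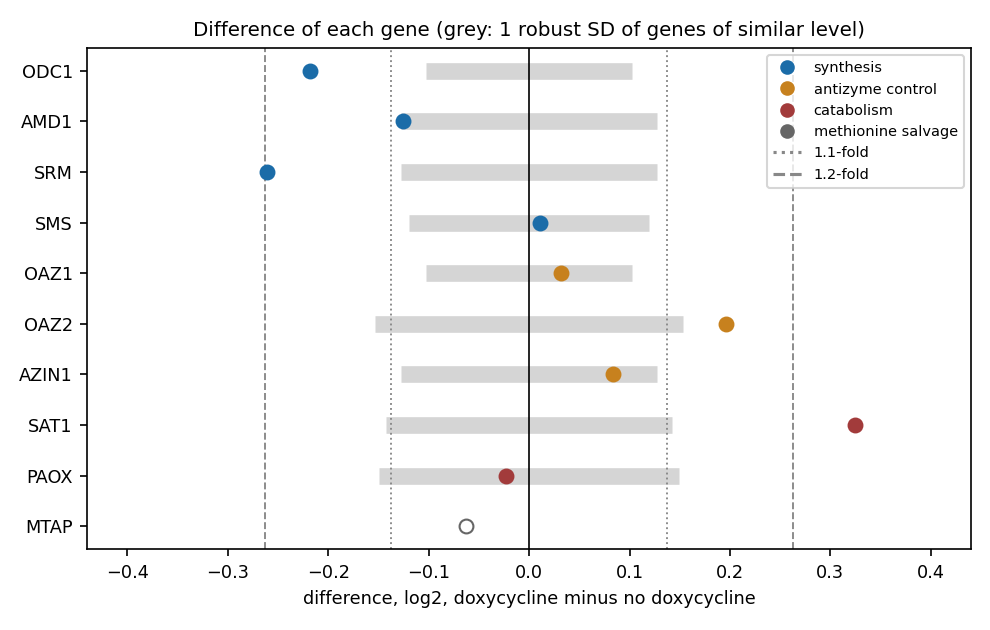
Difference of each gene (x axis, log2, doxycycline minus no doxycycline; 1 array each, so points have no replicate error). Grey bars span 1 robust SD of the differences of genes of similar level on either side of 0, dotted lines mark 1.1-fold and dashed lines 1.2-fold, and MTAP is open because it was under the floor. ODC1, SRM, OAZ2 and SAT1 lie outside their grey bars.

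The genes that control ODC1 protein were level or slightly higher. OAZ1, the most widely used antizyme, measured 12.02 with doxycycline against 11.99 in the control, differing by 0.03, or 0.311 robust SDs. OAZ2, a second antizyme, measured 8.39 with doxycycline against 8.19 in the control, differing by 0.20, or 1.15-fold higher and 1.28 robust SDs. AZIN1, the antizyme inhibitor, measured 10.72 with doxycycline against 10.63 in the control, differing by 0.08, or 0.657 robust SDs. All 3 were above 0, as were 50.3% of all genes, and 1 of 3, OAZ2, was at least 1.1-fold higher, as were 19.4% of all genes. Among the 674 genes of a level similar to OAZ2, 89 (13.2%) were as high or higher.

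A ratio between genes of 1 array does not depend on a scaling constant of that array. The ratio of ODC1 to OAZ1 was lower with doxycycline by 1.19-fold, a shift of -0.25 with a combined robust SD of 0.15. The ratio of ODC1 to OAZ2 was lower by 1.33-fold, a shift of -0.41 with a combined robust SD of 0.18, and that of ODC1 to AZIN1 by 1.23-fold, a shift of -0.30 with 0.16. The ODC1 signal was thus lower relative to both antizymes and to the inhibitor. For the 2 antizymes the ratio of OAZ2 to OAZ1 shifted by 0.16, within its combined robust SD of 0.18. These ratios show unequal change and do not show which gene of a pair changed.

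Of the catabolic pair, the acetyltransferase was higher and the oxidase was not. SAT1, the gene of the set furthest from 0, measured 9.35 with doxycycline against 9.03 in the control, differing by 0.32, or 1.25-fold higher. This was 2.28 robust SDs, and 10 of the 673 genes of similar level (1.49%, SAT1 included) were as high or higher. SAT1 was the 1 gene of the 9 past the floor that was at least 1.2-fold higher, against 6.04% of all genes. PAOX measured 7.46 with doxycycline against 7.48 in the control, differing by -0.02, or -0.155 robust SDs. The ratio of ODC1 to SAT1 was lower with doxycycline by 1.46-fold, a shift of -0.54 with a combined robust SD of 0.18. No gene of the set reached 1.5-fold in either direction (0 of 9), a size reached upwards by 0.364% and downwards by 0.111% of all genes.

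MTAP was dim in both cultures, at 5.47 with doxycycline and 5.53 without. Both values were under the floor of 6 and between the lower quartile (5.12 in both samples) and the median (6.77 and 6.78) of all probe sets, so its difference of -0.06 was not counted. K562 is known as a line that lost part of chromosome arm 9p with CDKN2A, the neighbour of MTAP, but the deposited values hold no measure of DNA, and whether these cultures carry MTAP was not tested. Of 13 genes of that region on a list of neighbours, 12 were measured and 4 were past the floor. CDKN2A stood at 6.67 with doxycycline and 6.72 without, CDKN2B at 6.97 and 7.04 and DMRTA1 at 6.90 and 6.97. The fourth, SLC24A2, a sodium, calcium and potassium exchanger gene, measured 7.06 with and 6.33 without doxycycline, a difference of 0.73. KLHL9, FOCAD, HACD4 and MLLT3 were among the 8 under the floor. The floor is not a detection call, and whether any of these genes was expressed was not tested.

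**Figure D3:**
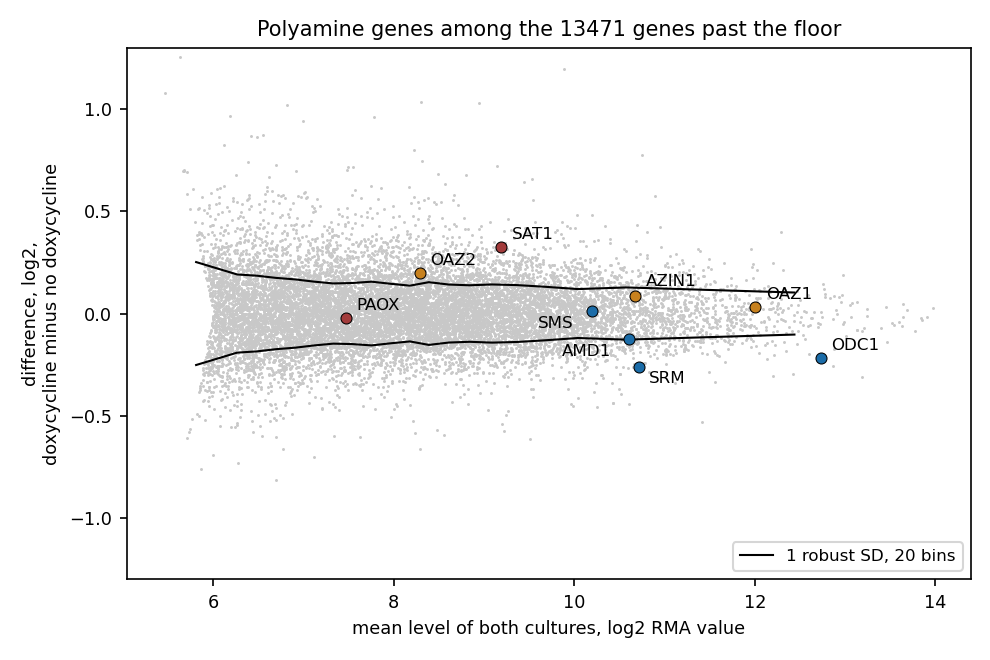
Difference (y axis, log2, doxycycline minus no doxycycline) against mean level of both cultures (x axis, log2 RMA value) for the 13471 genes past the floor (grey), with the 9 polyamine genes past it in the colours of their step (blue synthesis, orange antizyme control, red catabolism). Black lines are 1 robust SD on either side of 0. SRM and ODC1 lie under the lower line at the bright end, while OAZ2 and SAT1 lie above the upper line.

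Over all 9 genes past the floor the set had no common direction. Of these, 5 were higher and 4 lower, against 50.3% and 48.8% of all genes. Their median was 0.01 (from -0.00749 to 0.02 over the alternatives) beside 0.00177 for all genes. At least 1.1-fold higher were 2 of 9 (OAZ2 and SAT1), where 19.4% of all genes were, and at least 1.1-fold lower were 2 of 9 (ODC1 and SRM), where 17.1% were. The counts of the whole set were therefore close to the background.

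Among other genes linked to polyamine breakdown, SMOX was higher, SAT2 was lower by about 1 robust SD and AOC1 lay within 1 robust SD of 0. SMOX, which oxidises spermine directly, measured 8.19 with doxycycline against 7.97 in the control, differing by 0.22, or 1.17-fold higher, with a robust SD of 0.14. SAT2, a relative of SAT1, measured 7.15 with and 7.30 without doxycycline, a difference of -0.16, against a robust SD of 0.16. AOC1, the diamine oxidase gene, measured 6.52 with and 6.59 without doxycycline, a difference of -0.07, with a robust SD of 0.19. These genes were listed with the antizyme inhibitor AZIN2 (0.07), the agmatinase gene AGMAT (-0.04) and OAZ3, the testis antizyme. Of the 6 listed, 5 were past the floor and OAZ3 was under it. Higher were 2 of the 5 and lower 3, against 50.3% and 48.8% of all genes. Their median was -0.04 (0.22 with a floor of 8, which SMOX alone passes).

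Among genes with a role in moving polyamines, 6 of 11 were past the floor. Of these, 4 were higher and 2 lower, against 50.3% and 48.8% of all genes. Their median was 0.12 and turned to -0.017 with a floor of 8. CAV1, the caveolin gene, measured 6.75 with doxycycline against 6.01 in the control, differing by 0.74, or 1.67-fold higher, and was dim in the control. SLC3A2, the heavy chain of several amino acid exchangers, measured 11.12 with and 10.89 without doxycycline, a difference of 0.23, or 1.18-fold higher, with a robust SD of 0.10. SLC18B1, a vesicular polyamine transporter, measured 9.63 with and 9.82 without doxycycline, a difference of -0.18, with a robust SD of 0.13. ATP13A2 (-0.13) and ATP13A3 (0.09), polyamine transporters of lysosomes and endosomes, stood within 1 robust SD of 0 (0.14 and 0.13).

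Spermidine is also the donor for hypusine, a modified lysine in the translation factor eIF5A. DHPS, the first enzyme of that step, measured 9.43 with doxycycline against 9.31 in the control, differing by 0.12. DOHH, the second enzyme, measured 8.64 with and 8.84 without doxycycline, a difference of -0.19, or 1.14-fold lower, with a robust SD of 0.14. EIF5A2 differed by -0.01, and EIF5A was not analysed here. The enzymes of this short branch thus stood on opposite sides of 0.

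Genes that supply ornithine and arginine had a median of 0.05, with 5 of the 8 past the floor higher, against 50.3% of all genes. ARG2, the mitochondrial arginase that makes ornithine, measured 8.34 with doxycycline against 8.13 in the control, differing by 0.20, with a robust SD of 0.14. ASL, the argininosuccinate lyase gene, differed by 0.14, and SLC25A2, an ornithine carrier near the floor, by -0.16 with a robust SD of 0.25. SLC25A2 measured 5.98 with doxycycline and 6.14 without, so it passed the floor only through the control. OAT, the ornithine aminotransferase gene, differed by -0.11. At least 1.1-fold higher were 2 of the 8 (ARG2 and ASL), where 19.4% of all genes were, and at least 1.1-fold lower was SLC25A2 alone, where 17.1% were, so these counts were close to the background.

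The list for the methionine cycle, which feeds AMD1, also holds the AHCY relatives AHCYL1 and AHCYL2. Its median was 0.07, with 4 of 7 genes higher, against 50.3% of all genes. Both relatives were among the 4. Besides them, MAT2B (0.17) and MTR (0.07) were higher, and MAT2A, AHCY and MTRR (-0.07) were lower, so the list median does not give a direction of the cycle. MAT2A, the enzyme that makes S-adenosylmethionine in most cells, measured 11.86 with doxycycline against 11.96 in the control, differing by -0.11, with a robust SD of 0.10. AHCY, which clears the methylation by-product S-adenosylhomocysteine, measured 10.24 with and 10.46 without doxycycline, a difference of -0.23, or 1.17-fold lower, with a robust SD of 0.13. Its relatives AHCYL1 (0.25, at 11.33 and 11.08) and AHCYL2 (0.17) were higher, so members of 1 family stood on opposite sides of 0. The salvage enzymes that act after MTAP had a median of -0.06, with 3 of 4 lower, against 48.8% of all genes. These were ENOPH1 (-0.15), MRI1 (-0.10) and APIP (-0.01), while ADI1 stood at 0.07.

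MYC itself measured 11.16 with doxycycline against 11.33 in the control, differing by -0.17, or 1.13-fold lower, with a robust SD of 0.10. MXD1, which pairs with MAX and opposes MYC at E-boxes, measured 9.14 with and 8.82 without doxycycline, a difference of 0.32, or 1.25-fold higher, with a robust SD of 0.14. The other listed genes of that kind lay within 1 robust SD of 0, namely MXD3 (0.11), MNT (0.02), MXD4 (-0.01), MGA (-0.02) and MXI1 (-0.06). MLXIP, a member of the parallel MLX branch, measured 8.48 with and 8.74 without doxycycline, a difference of -0.26, and the dim MYCN, which passed the floor only through the doxycycline culture (6.18 against 5.99), differed by 0.19 with a robust SD of 0.25. MAX differed by 0.04. Whether MYC has a part in the lower ODC1 and SRM was not tested. As a list the 12 MYC network genes were near 0, with 7 higher and 5 lower, against 50.3% and 48.8% of all genes. Their median was 0.02 (from -0.02 to 0.02 over the alternatives), beside 0.00177 for all genes.

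The direction of ODC1 and SRM was also that of ribosome biogenesis factors, another textbook class of MYC targets. Of 18 such genes, none of which belongs to the polyamine set, 17 were lower, against 48.8% of all genes, with a median of -0.14 and differences from -0.30 to 0.00423. LYAR (-0.30), RRP12 (-0.24) and NOP16 (-0.21) were the furthest from 0, and 10 of the 18 were at least 1.1-fold lower, against 17.1% of all genes. ODC1 at -0.22 and SRM at -0.26 lay inside this range, as they did inside that of the erythroid markers (-0.57 to -0.09). Of the ATF4 and amino acid response genes 12 of 12 were higher, against 50.3% of all genes, with a median of 0.42. PHGDH (2.29-fold), SLC7A11 (2.04-fold) and WARS1 (1.71-fold) led that list, and its lowest member differed by 0.22. SAT1 at 0.32 lay inside that range. ATF4 differed by 0.23 at its brighter and by -0.09 at its dimmer probe set, so its own direction was not settled. Both lists were already known to differ in these samples and give no independent support, and whether the polyamine genes differ from either list could not be tested with 1 array a group.

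**Figure D4:**
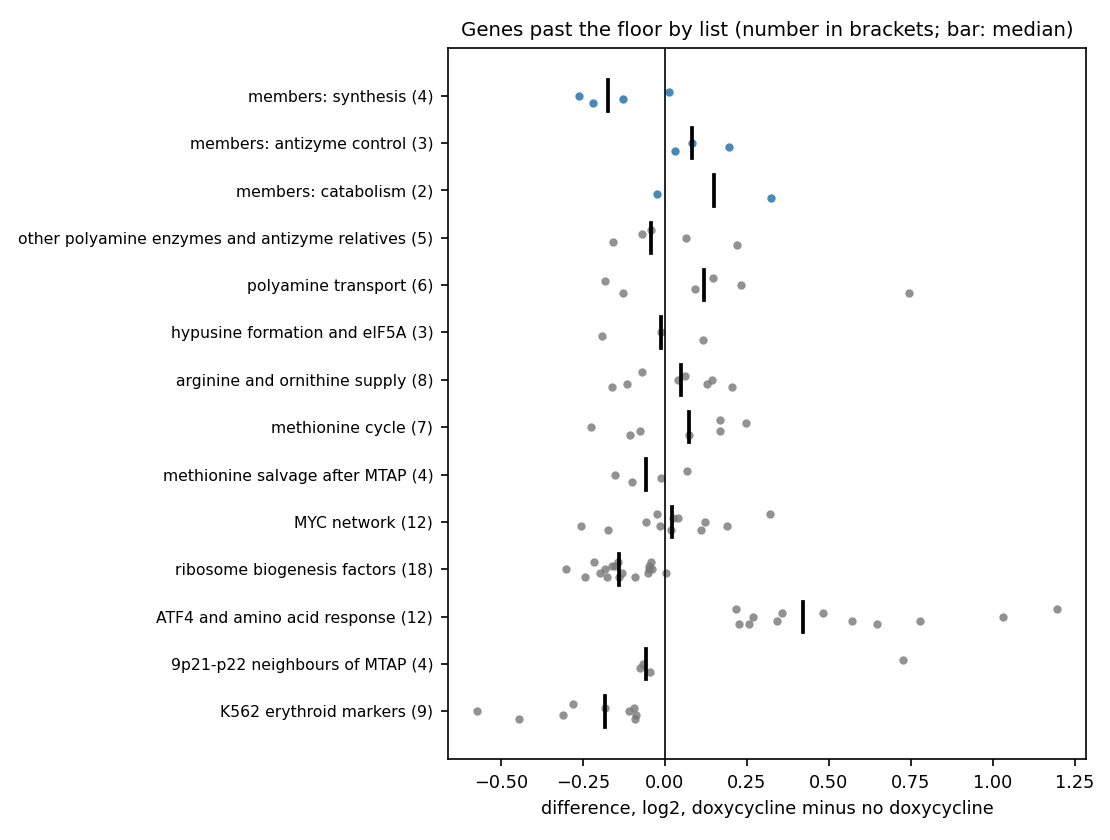
Differences (x axis, log2, doxycycline minus no doxycycline) of the genes past the floor in each list, 1 point a gene, with the number of genes in brackets and the median as a black bar; the polyamine genes are blue. The median of the synthesis genes (-0.17) lies between those of the erythroid markers (-0.18) and the ribosome biogenesis factors (-0.14). The 4 synthesis genes themselves spread from -0.26 to 0.01. The genes of neighbouring metabolic pathways lie on both sides of 0.

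Differences were weakly related to gene span across the array. Over 13457 genes the difference correlated with the genomic span of the gene with Spearman's rho of 0.18, a description across genes, which are not replicates and share both arrays. ODC1 and SRM span 8360 and 5430 bases, and SAT1 spans 3038. With the trend removed, an alternative added after the data had been seen, ODC1 differed by -0.19, SRM by -0.23, AMD1 by -0.16, OAZ2 by 0.20 and SAT1 by 0.36, and AMD1 then passed the 1.1-fold size.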

How the data were processed

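Total RNA of both cultures (0.3 µg each, integrity number 10) was labelled for whole-transcript arrays, per the labels' protocols. Although another array is named in the series' design, the probe set numbers match the annotated Gene ST platform. The authors deposited log2 values that, by the submitters' processing notes, came from RMA in Affymetrix Expression Console 1.1.1, which shrinks differences of dim genes and removes shifts shared by all genes. The log base was taken from RMA and the range of values.

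Of 33297 probe sets, the 19460 with 1 symbol were kept (19429 matched RefSeq on GRCh38.p14 by Entrez ID). A gene took its probe set with the highest mean, which gave 18417 genes, and 13471 reached the floor of 6 in either sample. Fold sizes describe differences and are not tests. Besides the 10 genes, the 3 furthest from 0 in each of 12 other lists were to be named, with MYC, SMOX, EIF5A, MAT2A, CDKN2A and BMI1; further genes were chosen after their values were seen. The genes and lists were chosen with earlier results of these data known. Steps were tested on simulated data in which 200 genes were changed by 1 log2 unit, more than any of the 10 genes differed. The check of recovered genes, made at 1.5-fold, does not cover differences of their size. Python 3.11.15 was used with pandas 2.3.3, numpy 2.4.6, statsmodels 0.14.6, scipy 1.17.1 and matplotlib 3.10.9. Alternatives tried were a gene's mean or median probe set value, median centring, loess trends (span 0.3) with level or gene span, quantile normalization, and other floors (none, 5, 7 and 8).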

Additional observations from a re-analysis of the deposited data

How the results depend on the processing

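Each of the 10 genes was recomputed under the alternatives that keep it past the floor (10 for 8 genes, 9 for PAOX, 2 for MTAP), and the 9 other than SMS kept their sign. The sign of MTAP could not change, because both of its alternatives were changed floors. Each gene has 1 probe set, so the mean, the median and the changed floors could not alter its value. Only median centring, the loess trends and quantile normalization could. ODC1 ranged from -0.22 to -0.19, SRM from -0.26 to -0.23, AMD1 from -0.16 to -0.11, OAZ2 from 0.19 to 0.20 and SAT1 from 0.32 to 0.36, while SMS ranged from -0.01 to 0.02. A value was held to have moved where it changed by more than 1 robust SD of genes of similar level, or a count by more than 1.5 times. Of 380 recomputed values 362 did not move so far, many of them because the alternative left the value untouched, and the other 18 were these. Without a floor, 3619 genes were at least 1.1-fold lower, 1343 and 1103 at least 1.2-fold higher and lower, and 77 and 66 at least 1.5-fold higher and lower. A floor of 5 gave 32 at least 1.5-fold lower. A floor of 7 gave 317 at least 1.2-fold lower, 26 at least 1.5-fold higher and 9 lower, and moved the median of the 9p neighbours of MTAP to 0.33. A floor of 8 gave 1246 and 1035 at least 1.1-fold higher and lower, 326 and 179 at least 1.2-fold, and 16 and 4 at least 1.5-fold. It moved the median of the other polyamine enzymes to 0.22 (SMOX alone) and that of the transport genes from 0.12 to -0.017. These alternatives differ from the floor of 6 in how many dim genes enter. No paired analysis was possible because each group held 1 sample. No replicate could be left out for the same reason. The number of arrays, and for dim genes such as MTAP the signal over background, limits every value.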

Other observations

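The E-box was also counted over all genes compared that have a RefSeq window (10603 genes). Of the 1309 genes with CACGTG in a window, 698 (53.3%) were lower with doxycycline, with a median of -0.01, against 48.4% and a median of 0.00316 for all genes with a window. At least 1.1-fold higher were 13.4% of them, against 19.5% of all genes with a window, and at least 1.1-fold lower were 19.1%, against 16.4%. Of the 137 genes with at least 2 copies in 1 window, as ODC1 has, 82 (59.9%) were lower, with a median of -0.02. The shares with at least 1.1-fold differences among these were 20.4% lower and 10.9% higher. Each gene was counted once, these are descriptions of 1 pair of arrays, and gene span was not held equal between the groups of genes.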
